A study of Homo sapiens with 12 samples.

Results

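The 9 genes described here encode enzymes of the tricarboxylic acid (TCA) cycle and of pyruvate entry into it: CS, IDH3A, OGDH, SUCLG1, FH, MDH2, PDHA1, PDK1 and PC. They were taken by gene symbol, with no threshold on their values, and earlier results of these data were known at that choice. All 9 were found among the 29657 genes listed for SCC15 cells and the 31055 listed for SCC25 cells. SCC15 and SCC25 are human head and neck squamous cell carcinoma (HNSCC) lines, wild type by the sample labels. Each line was cultured for 24 h with DMSO, the solvent, or with squamocin, an annonaceous acetogenin from Annona squamosa seeds. The labels name the treatment ACGs, and the dose of 10 µg/mL is that of the study's methods. There were 4 groups of 3 libraries, 12 libraries in all. The labels do not state whether the libraries of a group came from separate cultures, so the p-values below measure the spread between these libraries, which may be technical. Each line stands for 1 tumor, and the 2 lines were scaled separately, so levels were not tested between them.

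The TCA cycle oxidizes acetyl-CoA in the mitochondrial matrix and passes its electrons as NADH and FADH2 to the respiratory chain. Pyruvate enters it by 2 doors. The pyruvate dehydrogenase complex, whose catalytic E1 alpha subunit is PDHA1, turns pyruvate into acetyl-CoA, and the kinase PDK1 phosphorylates and inactivates that subunit. Pyruvate carboxylase (PC) instead makes oxaloacetate, which refills the cycle. Citrate synthase (CS) joins the products of both doors, and the catalytic subunit of NAD-dependent isocitrate dehydrogenase (IDH3A) and the E1 subunit of the 2-oxoglutarate dehydrogenase complex (OGDH) carry out the decarboxylations. The alpha subunit of succinate-CoA ligase (SUCLG1), fumarate hydratase (FH) and mitochondrial malate dehydrogenase (MDH2) then regenerate oxaloacetate. Squamocin is known as an inhibitor of respiratory Complex I, the enzyme that takes up the NADH.

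The sequence upstream of the transcription start is shown for 4 of the genes. CS and PDHA1 rose in both lines. PC and PDK1 are 2 of the 6 that fell in SCC25, and PDK1 rose in SCC15. Each run is the 250 bases before the start in RefSeq (GRCh38.p14), 5′ to 3′ on the strand of the gene. Capitals mark 3 motifs on either strand. They are the core of the hypoxia-inducible factor (HIF) site with the letters ACGTG, the box named after its letters CCAAT that NF-Y binds, and the GC box of the factor SP1, written GGGCGG.
CS, chr12:56300331-56300580, minus strand: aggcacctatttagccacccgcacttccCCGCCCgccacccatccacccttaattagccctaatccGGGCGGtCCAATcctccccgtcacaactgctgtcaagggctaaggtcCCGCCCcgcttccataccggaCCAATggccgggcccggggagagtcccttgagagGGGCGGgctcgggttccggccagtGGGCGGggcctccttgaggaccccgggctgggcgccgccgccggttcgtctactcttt
PDHA1, chrX:19343677-19343926, plus strand: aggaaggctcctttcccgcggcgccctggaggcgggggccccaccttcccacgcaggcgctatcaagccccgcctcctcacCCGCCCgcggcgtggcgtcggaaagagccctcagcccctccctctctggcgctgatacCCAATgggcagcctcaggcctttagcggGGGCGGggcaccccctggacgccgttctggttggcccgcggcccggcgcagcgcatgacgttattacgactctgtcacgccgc
PC, chr11:66958384-66958633, minus strand: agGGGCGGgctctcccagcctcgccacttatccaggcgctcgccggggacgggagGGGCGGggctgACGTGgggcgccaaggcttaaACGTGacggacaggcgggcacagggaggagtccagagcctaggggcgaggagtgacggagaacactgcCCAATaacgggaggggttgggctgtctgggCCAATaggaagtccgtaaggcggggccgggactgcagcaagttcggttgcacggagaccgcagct
PDK1, chr2:172555840-172556089, plus strand: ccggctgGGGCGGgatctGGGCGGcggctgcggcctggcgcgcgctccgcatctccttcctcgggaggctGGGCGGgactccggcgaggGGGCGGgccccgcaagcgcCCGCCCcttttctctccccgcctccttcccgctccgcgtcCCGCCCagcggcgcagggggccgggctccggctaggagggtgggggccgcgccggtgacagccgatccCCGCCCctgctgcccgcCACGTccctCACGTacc
RefSeq windows matched 8 of the 9 genes, with 11 windows in all because PC and PDK1 have several starts. The GC box was found in 7 of the 11 windows and in 42.6% of the 35116 windows of all genes, and the CCAAT box in 6 of the 11 and in 32.0% of all windows. The letters ACGTG were found in 2 of the 11 windows, those of PC and PDK1 shown here, and in 18.5% of all windows. The other windows of PC and PDK1 held 0 copies, as did those of IDH3A, MDH2 and SUCLG1, which also fell in SCC25. The windows of CS, PDHA1 and FH held 0 as well. A link between these letters and the direction of change was not tested. The ETS letters CCGGAAGT were found in 1 window, that of MDH2, in 2 copies, and in 3.42% of all windows. The E-box CACGTG, which contains ACGTG and occurs in 6.34% of all windows, and the ATF4 composite letters TGATGNAAT, which occur in 0.888%, were found in 0 of the 11. Such matches describe letters and not sites in use.

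The recovered reads on genes ranged from 16665563 to 22748845 per library. Values below are normalized counts, that is, reads divided by a size factor that the authors set for each library within its line. The third squamocin library of SCC15 stood apart: its reads differed from those of the other 2 squamocin libraries with a chi-square per degree of freedom of 56.8 and 64.1, against 1.67 to 9.95 for the 10 other pairs of replicates. Reads of the mitochondrial genome took 1.69 to 1.73% of a DMSO library and 0.796 to 0.959% of a squamocin library of SCC15, and for SCC25 the shares were 4.37 to 4.54% and 2.45 to 3.50%. All 8 squamous epithelial markers were listed in both lines, led by the keratin KRT17. In SCC15 only 4 of them reached a mean of 100 normalized counts, with either treatment. In SCC25 7 did with DMSO and 8 with squamocin. The summed normalized counts of the 8 went from 112500 to 118800 in DMSO libraries to 208300 to 362500 in squamocin libraries for SCC15, and from 23730 to 24260 to 46760 to 49160 for SCC25. Most of the SCC15 sums was KRT17, with means of 112300 (DMSO) and 260300 (squamocin). The summed counts of 4 leukocyte markers went from 329 to 420 with DMSO to 19.1 to 31.1 with squamocin in SCC25, and those of 4 endothelial markers from 233 to 296 to 19.8 to 37.8, while the 6 fibroblast markers went from 766 to 810 to 1073 to 1228. In SCC15 the same sums were 498 to 540 and 319 to 501 for leukocyte, 158 to 178 and 66.1 to 77.1 for endothelial, and 708 to 784 and 482 to 486 for fibroblast markers. PTPRC, the pan-leukocyte phosphatase, was near 0 in SCC15 and not listed in SCC25, and CD14 was the highest of the leukocyte markers in each group but SCC25 with squamocin, where CD3E was. With DMSO, CD14 alone had a mean of 504 in SCC15 and 351 in SCC25. The highest endothelial markers with DMSO were PECAM1 in SCC15 and CDH5 in SCC25, each with a mean of 166. The part of these shifts in the results below was not tested. In bulk RNA, fewer cells of a kind and less RNA per cell cannot be told apart.

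With squamocin, the enzymes that passed the test were higher in SCC15 and mostly lower in SCC25. In SCC15, 5 of the 9 rose (MDH2, PDHA1, PDK1, CS and SUCLG1, by 1.44 to 1.93-fold), 0 fell and 4 did not pass the test. In SCC25, 6 fell (PC, OGDH, IDH3A, PDK1, MDH2 and SUCLG1), of which PC fell the most, to 0.535 of its DMSO level, and only CS and PDHA1 rose. CS and PDHA1 were the 2 members that rose in both lines, and MDH2, PDK1 and SUCLG1 rose in SCC15 and fell in SCC25. A call here is a Benjamini-Hochberg adjusted p under 0.05 in limma over all genes tested in the line. Of those 15902 genes in SCC15, 30.9% rose and 30.0% fell, and of the 16539 in SCC25, 38.3% rose and 38.5% fell. For the 14454 genes tested in both, 22.1% rose in both and 5.44% rose in SCC15 and fell in SCC25. The median log2 fold change of the 9 was 0.53 in SCC15 and −0.17 in SCC25, against 0.012 and −0.015 over all genes tested. Counts by edgeR on the recovered reads added 1 fall in SCC15 (IDH3A), and the members with an unadjusted p under 0.05 and a lower value there numbered 0 in limma. Without the third squamocin library of SCC15, 7 members rose there and 1 fell, with log2 values of 0.61 for CS, 0.56 for PDK1 and 0.38 for SUCLG1 among those that had risen with it.

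These directions depend on whether library totals are set equal. With TMM factors, another scaling of libraries, 5 members rose and 0 fell in SCC15, and 2 rose and 6 fell in SCC25. DESeq2 on the recovered reads gave the same counts, which are those under the authors' size factors. The authors' size factors left the normalized totals of the squamocin libraries above those of the DMSO libraries, and setting all library totals equal shifted the median log2 fold change of all genes to −0.50 in SCC15 and −0.23 in SCC25. With equal totals, 2 members rose (MDH2 and PDHA1) and 3 fell (IDH3A, PC and OGDH) in SCC15, where 14.6% of all genes rose and 51.0% fell. In SCC25, 0 rose and 7 fell with equal totals, where 30.3% of all genes rose and 47.6% fell. MDH2 and PDHA1 rose in SCC15 under both scalings, and PC, OGDH, IDH3A, PDK1, MDH2 and SUCLG1 fell in SCC25 under both.

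**Figure D1:**
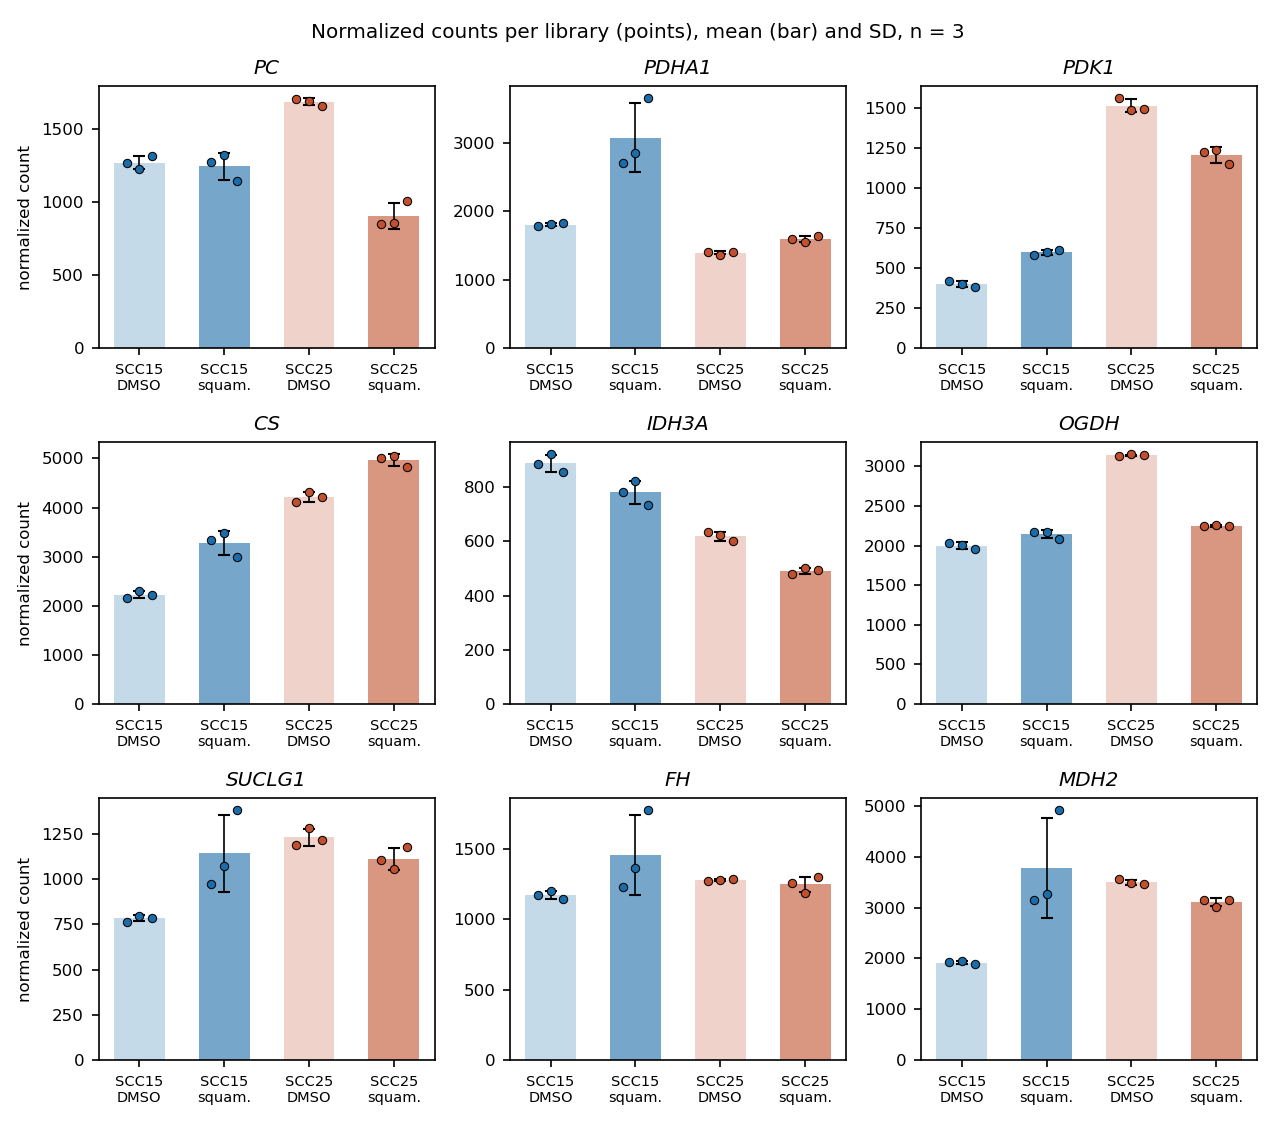
Normalized counts of the 9 enzymes (vertical axes, from 0) in each of the 12 libraries (points), with the mean (bar) and SD of 3 libraries, by line and treatment. The third squamocin library of SCC15 holds the highest value for MDH2 (4914), PDHA1 (3656), FH (1774) and SUCLG1 (1380), and the PC bars separate in SCC25 only.

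Of the enzymes of pyruvate entry, PDHA1 (ENSG00000131828, chrX:19343893-19361705, plus strand) rose in both lines. Its normalized counts in SCC15 were 1782, 1818 and 1826 with DMSO and 2717, 2863 and 3656 with squamocin. Every squamocin library lay above every DMSO library, which held upward for 35.7% of all genes tested in SCC15. The rise was 1.69-fold (log2 0.75, SE 0.12, limma adjusted p = 0.00143), and log2 0.62 without the third squamocin library. In SCC25 the counts were 1401, 1370 and 1411 with DMSO and 1595, 1555 and 1645 with squamocin, again without overlap (39.4% of all genes upward in that line). That rise was smaller, 1.15-fold (log2 0.20, SE 0.047, limma adjusted p = 0.00203), and it was lost with equal totals (log2 −0.011). The pseudogene PDHA1P1, a near copy from which reads could be shared, held a mean of at most 7.73 normalized counts in any group.

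PDK1 (ENSG00000152256, chr2:172555373-172608669, plus strand), the kinase that inactivates PDHA1, moved in opposite directions. SCC15 cells held 417, 402 and 379 normalized counts of it with DMSO and 580, 596 and 615 with squamocin, so the 2 groups did not overlap. The rise was 1.49-fold (log2 0.58, SE 0.088, limma adjusted p = 0.00111), with a log2 value of 0.082 that did not pass with equal totals. SCC25 cells held 1557, 1487 and 1493 with DMSO and 1224, 1239 and 1150 with squamocin. Every squamocin library was thus below every DMSO library, as for 39.6% of all genes in that line, and the fall was to 0.796 of the DMSO level (log2 −0.33, SE 0.051, limma adjusted p = 6.58e-05). An antisense gene, AC078883.1, overlaps PDK1. Its mean normalized count went from 16.3 to 29.8 in SCC15 and from 34.7 to 71.5 in SCC25, and whether the authors' counting used strand is not stated.

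PC (ENSG00000173599, chr11:66848233-66958376, minus strand) showed the largest fall of the 9 in SCC25. Its normalized counts there were 1706, 1692 and 1661 with DMSO and 846, 858 and 1009 with squamocin, with a wide gap between the groups. The log2 fold change was −0.90 (SE 0.066, limma adjusted p = 6.50e-08). In SCC15 the counts were 1268, 1225 and 1316 with DMSO and 1272, 1323 and 1143 with squamocin. These groups overlapped, and the log2 fold change of −0.029 (SE 0.089, limma adjusted p = 0.795) did not pass the test. It was −0.53 with equal totals, which passed, and 0.032 without the third squamocin library. LRFN4, a gene on the other strand within the PC locus, went from a mean of 747 to 1025 in SCC15 and from 1095 to 1348 in SCC25.

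**Figure D2:**
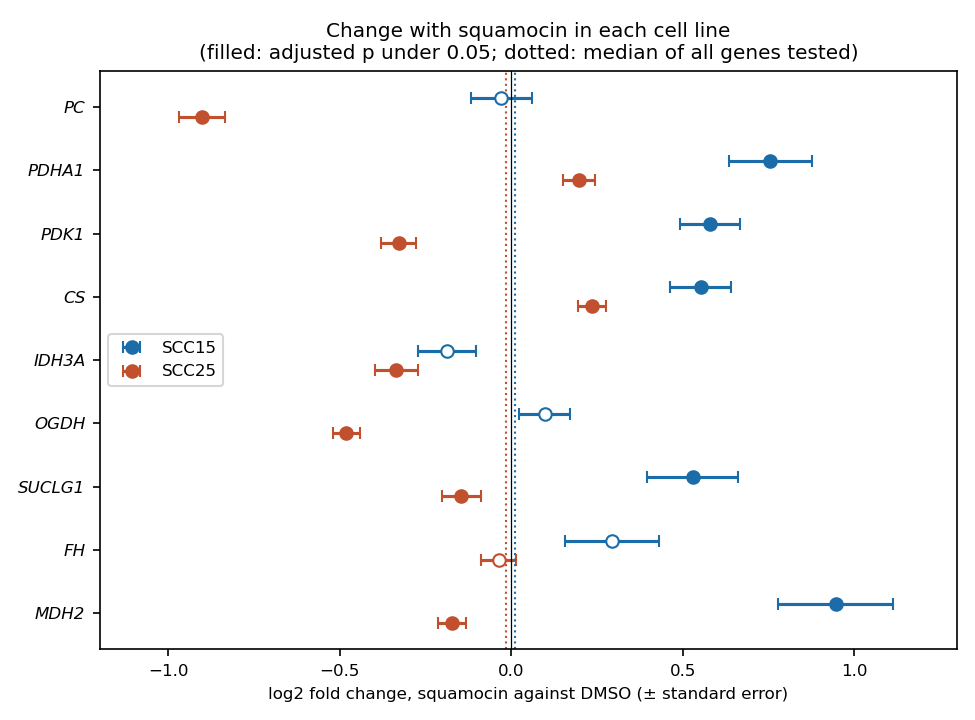
Log2 fold change of squamocin against DMSO (horizontal axis, on normalized count plus 1) with its standard error for the 9 enzymes in SCC15 (blue) and SCC25 (orange), 3 libraries per group. Filled points passed the limma test, and each SCC25 point lies to the left of the SCC15 point of the same gene, from −0.90 for PC in SCC25 to 0.95 for MDH2 in SCC15.

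At the first step of the cycle, CS (ENSG00000062485, chr12:56271699-56300392, minus strand) rose in both lines. In SCC15 its normalized counts were 2167, 2293 and 2225 with DMSO and 3347, 3477 and 2996 with squamocin, a rise of 1.47-fold (log2 0.55, SE 0.089, limma adjusted p = 0.00143). SCC25 cells held 4113, 4328 and 4211 with DMSO and 5006, 5054 and 4829 with squamocin. The rise there was 1.18-fold (log2 0.23, SE 0.040, limma adjusted p = 0.000153). The groups did not overlap in either line, but both rises were lost with equal totals (log2 0.054 and 0.027).

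IDH3A (ENSG00000166411, chr15:78131498-78171949, plus strand), the catalytic subunit of the NADH-producing isocitrate dehydrogenase, was lower with squamocin in every library of both lines. SCC15 cells held 886, 920 and 857 normalized counts with DMSO and 784, 822 and 735 with squamocin. No library overlapped, as for 34.9% of all genes downward in SCC15, yet the log2 fold change of −0.19 (SE 0.085, limma adjusted p = 0.0919) did not pass the test. It passed with equal totals (−0.68), with edgeR (−0.25, adjusted p = 0.0464) and without the third squamocin library (−0.14, adjusted p = 0.0350). In SCC25 the counts were 634, 622 and 601 with DMSO and 478, 500 and 494 with squamocin, and the fall was log2 −0.33 (SE 0.062, limma adjusted p = 0.000321). CIB2, which overlaps it on the other strand, went from a mean of 120 to 222 normalized counts in SCC15 and from 22.2 to 7.05 in SCC25.

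OGDH (ENSG00000105953, chr7:44606572-44709066, plus strand), the E1 subunit that decarboxylates 2-oxoglutarate, fell in SCC25. Its normalized counts there were 3134, 3150 and 3140 with DMSO and 2242, 2265 and 2241 with squamocin, and the SD was 8.04 and 13.3 around means of 3141 and 2249. The log2 fold change was −0.48 (SE 0.039, limma adjusted p = 1.84e-07). In SCC15 the counts were 2038, 2003 and 1960 with DMSO and 2169, 2170 and 2083 with squamocin. The squamocin libraries lay above the DMSO libraries by a small margin, and the log2 fold change of 0.098 (SE 0.075, limma adjusted p = 0.286) did not pass the test. Its direction turned with equal totals (−0.40, which passed), and without the third squamocin library it was 0.12 and passed (adjusted p = 0.0264).

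In the second part of the cycle, MDH2 (ENSG00000146701, chr7:76048051-76067508, plus strand) showed the largest rise of the 9 in SCC15 and a fall in SCC25. With DMSO, SCC15 libraries held 1931, 1947 and 1882 normalized counts, and with squamocin 3146, 3275 and 4914. The rise of 1.93-fold (log2 0.95, SE 0.17, limma adjusted p = 0.00220) was log2 0.74 without the third squamocin library, whose value was far above the other 2. SCC25 libraries held 3561, 3478 and 3457 with DMSO and 3156, 3014 and 3143 with squamocin. The groups did not overlap and the fall was log2 −0.17 (SE 0.041, limma adjusted p = 0.00184).

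SUCLG1 (ENSG00000163541, chr2:84423523-84460045, minus strand), the subunit shared by both forms of succinate-CoA ligase, had the same opposite directions. In SCC15 it went from 764, 797 and 787 normalized counts with DMSO to 973, 1075 and 1380 with squamocin, a rise of 1.44-fold (log2 0.53, SE 0.13, limma adjusted p = 0.0107) that was lost with equal totals (log2 0.032). In SCC25 it went from 1191, 1284 and 1216 to 1108, 1054 and 1176. The groups did not overlap, but the highest squamocin library lay close to the lowest DMSO library. This fall, log2 −0.15 (SE 0.057, limma adjusted p = 0.0335), no longer passed when DMSO library 2 (adjusted p = 0.148), DMSO library 3 (0.0701), squamocin library 1 (0.0730) or squamocin library 2 (0.113) was left out, or with no filter on low genes (0.0539).

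FH (ENSG00000091483, chr1:241497603-241519761, minus strand), which hydrates fumarate to malate and is a tumor suppressor in hereditary kidney cancer, did not pass the test in either line. Its normalized counts in SCC15 were 1176, 1199 and 1145 with DMSO and 1229, 1368 and 1774 with squamocin. Each squamocin library was higher, but they were spread widely, and the log2 fold change of 0.29 (SE 0.14, limma adjusted p = 0.0967) turned to −0.20 with equal totals. Leaving out squamocin library 3 gave 0.14 (adjusted p = 0.0278) and leaving out squamocin library 1 gave 0.41 (adjusted p = 0.0325), both past the threshold, as was the value with array weights (0.18, adjusted p = 0.0371). In SCC25 the counts were 1273, 1278 and 1291 with DMSO and 1258, 1190 and 1298 with squamocin, groups that overlapped (log2 −0.037, SE 0.051, limma adjusted p = 0.518), and the log2 value of −0.25 with equal totals passed.

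**Figure D3:**
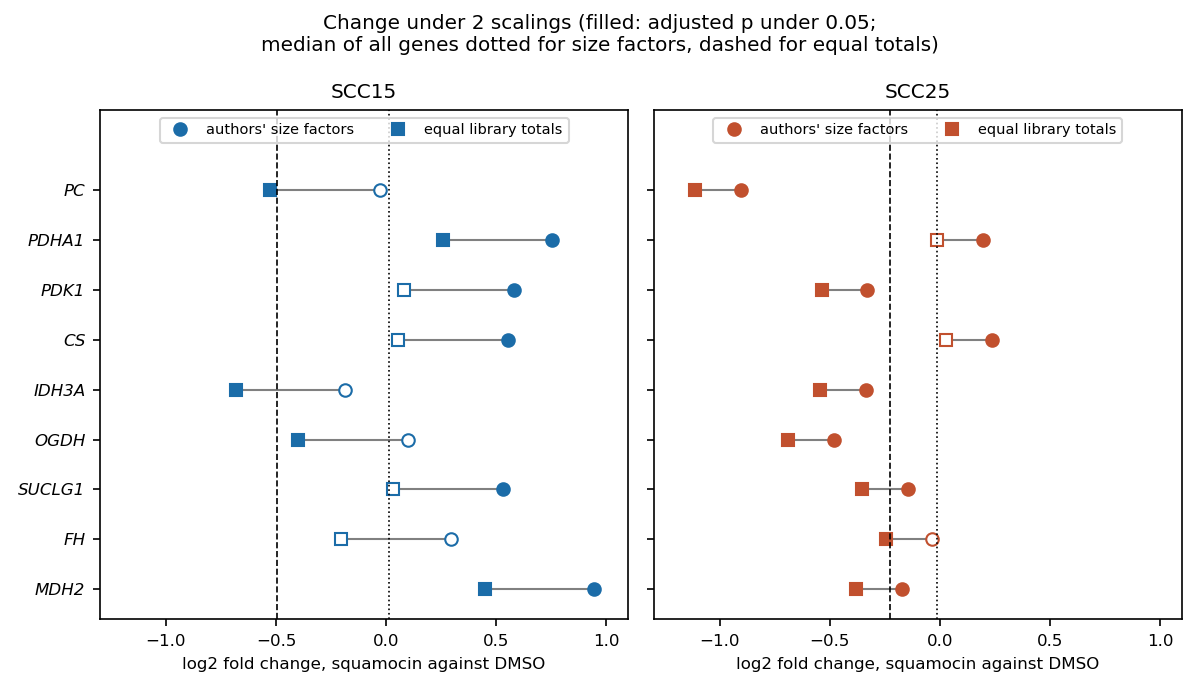
Log2 fold change (horizontal axis) of the 9 enzymes under the authors' size factors (circles) and with equal library totals (squares), in SCC15 (left) and SCC25 (right), with the median of all genes as a dotted and a dashed line and filled symbols for adjusted p under 0.05. In SCC15 equal totals leave MDH2 (0.45) and PDHA1 (0.26) past the threshold above 0, and in SCC25 they leave 7 genes past it below 0.

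Whether the lines responded differently was tested as the SCC25 response minus the SCC15 response in 1 limma fit over all 12 libraries. All 9 differences lay below 0, 7 of them past the threshold, against 26.1% of all genes past it in that direction and 26.0% in the other. MDH2 had the largest difference (log2 −1.12, SE 0.18, adjusted p = 0.000219), followed by PDK1 (−0.91, SE 0.096, adjusted p = 7.35e-06) and PC (−0.87, SE 0.12, adjusted p = 4.67e-05). Leaving out single libraries gave −1.24 to −0.91 for MDH2, −0.94 to −0.87 for PDK1 and −0.95 to −0.83 for PC. These ranges overlap, so the order of the 3 is not fixed. These 3 differ in form: MDH2 and PDK1 rose in SCC15 and fell in SCC25, while PC fell in SCC25 with no call in SCC15. SUCLG1 (−0.67), OGDH (−0.58), PDHA1 (−0.56) and CS (−0.32) also passed, with limma adjusted p from 5.29e-05 for OGDH to 0.0143 for CS. FH (−0.33, limma adjusted p = 0.0813) and IDH3A (−0.15, limma adjusted p = 0.226) did not pass, and FH passed without SCC15 squamocin library 3 (−0.18, adjusted p = 0.0480) or library 1 (−0.45, adjusted p = 0.0119) and with DESeq2 on the recovered reads (−0.34, adjusted p = 0.0468). With equal totals the median difference of all genes moved from −0.012 to 0.28. The members that passed were then 6 (MDH2, PDK1, PC, SUCLG1, OGDH and PDHA1), all still below 0, against 16.5% of all genes in that direction and 37.7% in the other, while CS did not pass (−0.027) and IDH3A turned to 0.14.

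A ratio of 2 genes within a library does not depend on the scaling between libraries, so 3 ratios were followed in each line. The ratio of PDK1 to PDHA1, the kinase to its substrate, was 1.11, 1.09 and 1.06 with DMSO and 0.767, 0.797 and 0.699 with squamocin in SCC25. In SCC15 it was 0.234, 0.221 and 0.207 with DMSO and 0.213, 0.208 and 0.168 with squamocin. The SCC25 groups were apart (log2 −0.53, exact permutation p = 0.1), whereas the SCC15 groups overlapped (log2 −0.18, exact permutation p = 0.3). A p of 0.1 is the smallest that 3 against 3 libraries allow, and after adjustment over the 6 ratio tests it was 0.12. Without the third squamocin library the SCC15 contrast was log2 −0.066.

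The ratio of PC to PDHA1, the 2 routes of pyruvate entry, was lower with squamocin in both lines, without overlap. It was 0.711, 0.673 and 0.721 with DMSO and 0.468, 0.462 and 0.313 with squamocin in SCC15 (log2 −0.78), and 1.22, 1.24 and 1.18 against 0.531, 0.552 and 0.613 in SCC25 (log2 −1.10). The ratio of OGDH to SUCLG1, successive steps of the cycle, was 2.67, 2.51 and 2.49 against 2.23, 2.02 and 1.51 in SCC15 (log2 −0.43), and 2.63, 2.45 and 2.58 against 2.02, 2.15 and 1.91 in SCC25 (log2 −0.34). Without the third squamocin library, the SCC15 contrast was −0.59 for PC to PDHA1 and −0.27 for OGDH to SUCLG1. Each of these 4 contrasts had an exact permutation p of 0.1 (two-sided), the smallest that 3 against 3 libraries allow, and 0.12 after adjustment over the 6 tests, so this design could not bring them past 0.05.

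Levels between the enzymes were compared per kilobase of exonic sequence (GENCODE release 44). For CS, IDH3A, SUCLG1, FH, PDHA1 and PC the start or end in that release differs from the deposited one. Their lengths may thus differ from those of the exons that were counted. MDH2 had the highest level in all 4 groups, at 527 (DMSO) and 1038 (squamocin) normalized counts per kilobase in SCC15, and 961 and 853 for SCC25. After it in SCC15 with DMSO came OGDH (384), PDHA1 (365), CS (348), SUCLG1 (188), PC (174), IDH3A (130), FH (126) and PDK1 (26.9), where only IDH3A and FH overlapped. With squamocin PDHA1 (622) and CS (511) stood above OGDH (411), SUCLG1 (274) followed, PC (171) and FH (156) overlapped, and IDH3A (114) and PDK1 (40.2) were lowest. In SCC25 with DMSO the order after MDH2 was CS (659), OGDH (603), SUCLG1 (296), PDHA1 (281), PC (231), FH (137), PDK1 (102) and IDH3A (90.8), with no overlap between neighbors. With squamocin it was CS (775), OGDH (432), PDHA1 (323), SUCLG1 (267), FH (134), PC (124), PDK1 (81.1) and IDH3A (71.9), where FH and PC overlapped. Per exonic length PDK1 was thus the lowest of the 9 in SCC15 and IDH3A in SCC25. The exonic length of PDK1, 14845 bases, is the longest of the 9 and its coding length is 1368 bases. Per kilobase of coding length only 3, 3, 4 and 1 of the 9 enzymes kept their place in these 4 groups. By that measure PC was lowest in SCC15 with squamocin and in both SCC25 groups, and CS (3550) stood above MDH2 (3061) in SCC25 with squamocin.

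The enzymes around these 9 were counted from 4 lists of 43 further genes. Of all genes tested, 30.9% rose and 30.0% fell in SCC15, and 38.3% rose and 38.5% fell in SCC25. With equal totals these shares were 14.6% and 51.0% in SCC15 and 30.3% and 47.6% in SCC25. Of genes tested in both lines, 22.1% rose in both. The counts of each list below are to be read beside these shares. Of the 11 other TCA cycle enzymes, 10 rose and 0 fell in SCC15 (median log2 fold change 0.75), and 3 rose and 7 fell in SCC25 (median −0.21). With equal totals these counts were 6 and 1 in SCC15 and 2 and 8 in SCC25. In SCC15, IDH3G and IDH3B, the regulatory subunits that bind IDH3A, rose by log2 1.01 and 0.85, and the succinate dehydrogenase iron-sulfur subunit SDHB by 1.02, each past the threshold under both scalings. In SCC25, IDH3G and IDH3B fell (log2 −0.21 and −0.23), and the IDH3G fall did not pass without DMSO library 1 or 2 (adjusted p = 0.0597 and 0.0611). SDHB rose there by 0.15, which turned to −0.055 with equal totals and did not pass without DMSO library 2 or 3 or squamocin library 1 (adjusted p = 0.106, 0.0630 and 0.0844). SUCLG1 has 2 alternative partners. The ADP-forming succinate-CoA ligase subunit SUCLA2 rose in both lines by 0.75 and 0.72. The GDP-forming subunit SUCLG2, outside the naming rule, rose in SCC15 (0.71) and fell in SCC25 (−0.21), past the threshold under both scalings. The membrane anchor SDHD rose by 0.79 in each line. The SCC15 value of SDHD was 0.29 with equal totals, which did not pass, and 0.52 without squamocin library 3. Its pseudogenes held a mean of at most 35.2 normalized counts in any group. Of the 11, 7 rose in SCC15 and fell in SCC25, as did 5.44% of all genes tested in both lines. For SDHA and DLST, which are among these 7, the SCC15 rise was lost with equal totals (log2 0.0094 and −0.11, neither past the threshold). For 8 of the 11 the response was lower in SCC25 past the threshold, against 0 that were higher. Of all genes, 26.1% were lower and 26.0% higher in that contrast. With equal totals 8 of the 11 were lower and 1 was higher, against 16.5% and 37.7% of all genes.

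Of the 10 genes of the pyruvate dehydrogenase complex and its regulators, 9 were tested. PDK4 was not listed in SCC15 and too low to be tested in SCC25. Of the 9, 2 rose and 4 fell in SCC15 (median log2 fold change −0.13), while 3 rose and 4 fell in SCC25 (median −0.088). Equal totals gave 0 and 6 in the first line and 3 and 6 in the second. PDK2, another kinase of PDHA1, fell in both lines, from 171 ± 15.7 to 95.4 ± 10.7 normalized counts in SCC15 (log2 −0.84, SE 0.14, limma adjusted p = 0.00187) and from 289 ± 25.3 to 76.7 ± 14.9 in SCC25 (log2 −1.91, SE 0.14, limma adjusted p = 8.29e-08). PDPR, the regulatory subunit of the phosphatase that reactivates PDHA1, also fell in both (log2 −1.56 and −1.08). The catalytic subunit of that phosphatase, PDP1, rose by 0.80 and 0.33, and the E3-binding protein PDHX by 0.59 and 1.01. With equal totals the rises of PDP1 and PDHX in SCC15 did not pass (0.30 and 0.091), and both falls of PDK2 and PDPR did. Outside the naming rule, the core subunits PDHB, DLAT and DLD rose in neither line. PDHB, the E1 beta subunit, fell in SCC25 (log2 −0.40) and did not pass in SCC15 (0.089). DLAT fell in SCC15 (−0.36) and did not pass in SCC25 (−0.088), and DLD passed in neither (−0.13 and −0.055). With equal totals PDHB, DLAT and DLD were lower past the threshold in both lines.

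The pyruvate carriers and lactate dehydrogenases had 3 of 4 genes higher in both lines, with a median log2 fold change of 0.95 in SCC15 and 1.37 in SCC25. Equal totals gave 2 higher and 1 lower in SCC15 and 3 and 1 in SCC25. MPC1 and MPC2, the subunits of the carrier that brings pyruvate into the matrix, rose by log2 1.00 each in SCC15 and, in SCC25, by 1.98 and 1.24, past the threshold under both scalings. In SCC25 MPC1 went from 112 ± 10.3 to 445 ± 47.5 normalized counts (SD, n = 3; limma adjusted p = 4.67e-09). LDHB rose by 0.90 in SCC15, a value of 0.56 without squamocin library 3, and 1.51 in SCC25. The SCC15 rise of LDHB did not pass with equal totals (0.41), nor without DMSO library 1 or 2 (adjusted p = 0.0636 and 0.0669).

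Of the 18 cytosolic and anaplerotic partners, 9 of 16 tested rose and 0 fell in SCC15 (median log2 fold change 0.44), and 8 of 17 rose and 6 fell in SCC25 (median 0.14). These counts became 4 and 5, and 8 and 8, with equal totals. PCK2, mitochondrial phosphoenolpyruvate carboxykinase, went from 711 ± 51.8 to 2527 ± 472 normalized counts in SCC15 (SD, n = 3; log2 1.81, SE 0.14, limma adjusted p = 5.95e-05) and rose by log2 0.52 in SCC25. Glutamate dehydrogenase (GLUD1) rose by 1.34 and 0.97 and the cytosolic aspartate aminotransferase GOT1 by 1.13 and 1.02, in each case under both scalings. Pseudogenes of GLUD1 held a mean of at most 50.4 normalized counts in any group. Of the malic enzymes, the cytosolic ME1 rose by 0.55 and 1.26. The mitochondrial ME3 fell by 1.44 on the log2 scale in SCC25 and had a log2 value of 0.26 that did not pass in SCC15. ME2, also mitochondrial and outside the naming rule, rose by 0.49 in SCC25 (limma adjusted p = 1.23e-05) and did not pass in SCC15 (0.051). With equal totals ME2 was 0.29 in SCC25 and −0.45 in SCC15, both past the threshold. The ME1 rise in SCC15 was lost with equal totals (0.053) and without DMSO library 1 or 3 (adjusted p = 0.0613 and 0.0600). GLS2, a glutaminase with few reads, went from 18.1 ± 7.48 to 4.30 ± 3.73 normalized counts in SCC25 (limma adjusted p = 0.0122) and was too low to be tested in SCC15.

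**Figure D4:**
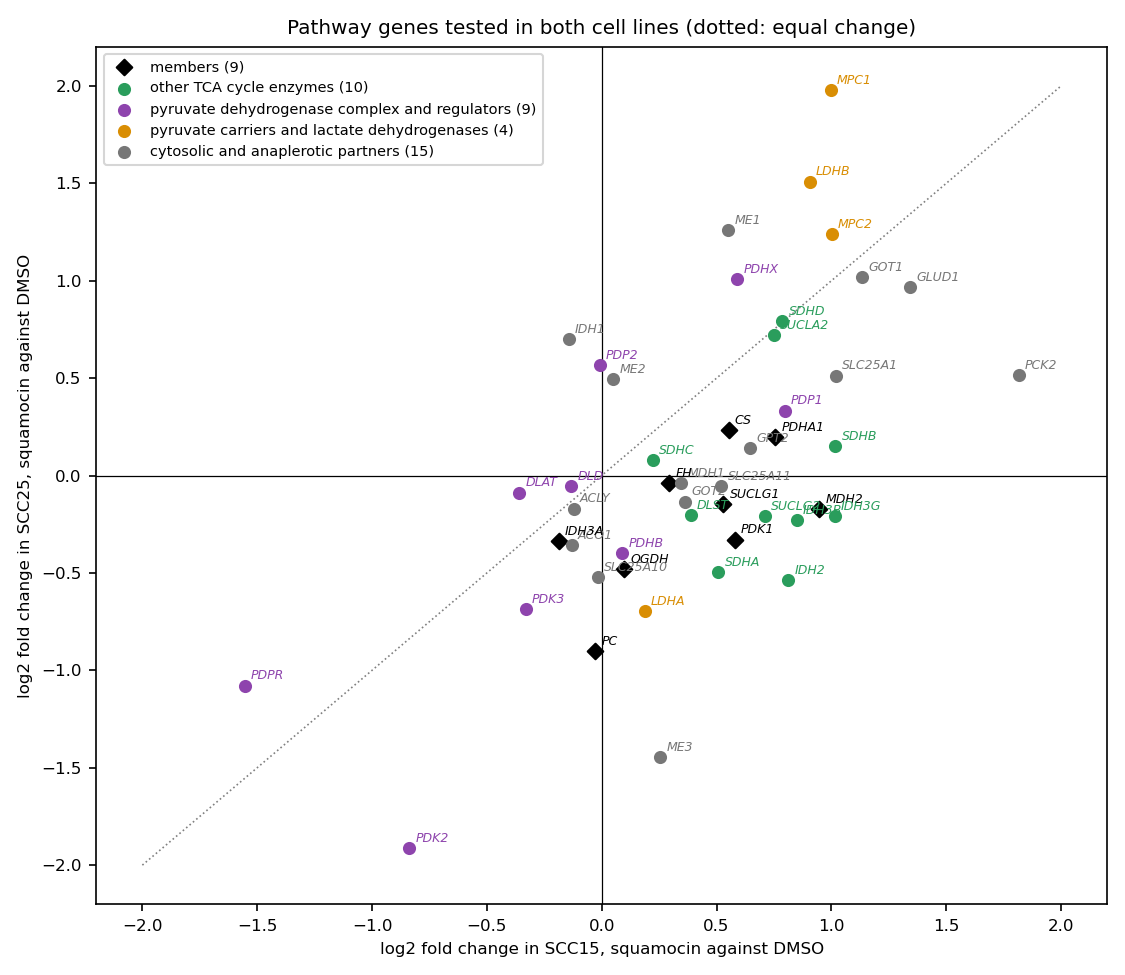
Log2 fold change of squamocin against DMSO in SCC15 (horizontal axis) and SCC25 (vertical axis) for the 9 enzymes (black diamonds) and 38 further pathway genes tested in both lines (circles, colored by list), with a dotted line of equal change. On the SCC25 axis MPC1 (1.98) and PDK2 (−1.91) lie at the ends and on the SCC15 axis PCK2 (1.81) and PDPR (−1.56), and the 9 enzymes lie below the dotted line.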

How the data were processed

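RNA-seq was made from SCC15 and SCC25 cells treated with squamocin or DMSO, with 3 libraries per group. The labels name the NEBNext Ultra kit and the study's methods Ultra II. Per the submitters' processing notes, which cover GRCh38, HISAT2 2.0.5 and featureCounts 1.5.0-p3, reads were aligned and counted per gene. The deposited signal is the number of reads on a gene over a size factor of its library, set by the authors within each line, although columns of the SCC25 table are headed FPKM. Multiplied back, 100% of values were whole to within 0.01 read. Columns of the authors' own fold changes and p-values were not used.

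Normalized counts, with 1 added and on the log2 scale, entered a two-sided limma 3.58.1 test (eBayes with trend, R 4.3.3) if their mean over the 6 libraries of a line reached 10, with Benjamini-Hochberg adjustment over all genes tested in a line or, for the difference between lines, over the 14454 tested in both. Fold changes are on that scale, which understates changes of low genes. Ratios were tested by exact permutation. Reads carry no molecular identifiers.

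All 9 members are named. Of each further list, up to 3 genes past the threshold with the largest absolute change in each line are named, except where a gene's values are left out. Some genes outside this rule are also given. The members and lists were chosen with earlier results of these data known. Scripts were tested on simulated data. Alternatives were pseudocounts of 0.1 and 10, no filter, at least 10 in every library, equal library totals, TMM factors, count models for the recovered reads (edgeR 4.0.16, DESeq2 1.42.0), array weights, a replicate block, leaving out each library, an absolute log2 fold change above 1, and coding length.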

Additional observations from a re-analysis of the deposited data

Results flagged for a closer look

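Of the 9 enzymes, 7 had a response to squamocin that differed between the lines in the limma contrast (SCC25 response minus SCC15 response, adjusted p under 0.05). MDH2 differed by log2 −1.12, PDK1 by −0.91 and PC by −0.87. SUCLG1 differed by −0.67, OGDH by −0.58, PDHA1 by −0.56 and CS by −0.32. With equal library totals the CS difference was −0.027 and did not pass, and the other 6 passed with the same direction.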

How the results depend on the processing

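Setting library totals equal moved the counts of members that rose and fell in both lines. TMM factors left the counts of members that rose and fell in each line unchanged. With equal library totals, members that rose and fell numbered 2 and 3 in SCC15 and 0 that rose in SCC25, and further pathway genes 12 and 13 in SCC15. Among members and genes named by the rule, the log2 fold change then turned for OGDH (−0.40), FH (−0.20) and ME3 (−0.24) in SCC15, for PDHA1 (−0.011) and SDHB (−0.055) in SCC25, and for the difference of IDH3A between lines (0.14). Of these, only OGDH passed the threshold after turning, and other genes of the lists, such as LDHA in SCC15 (−0.31), also turned and passed. edgeR gave 1 member lower in SCC15. Array weights gave PC a log2 value of 0.022 in SCC15, and leaving out single libraries gave PC −0.074 to 0.032, 0 to 1 members lower and 3 to 7 further genes lower in SCC15, the highest counts without squamocin library 3. An absolute log2 fold change above 1 left 0 members higher in SCC15, 0 higher and 0 lower in SCC25, and 1 lower in the difference (MDH2). The MDH2 difference was −1.24 to −0.91 on leaving out single libraries. Of further genes this threshold left 7 higher and 1 lower in SCC15, 6 and 5 in SCC25, and 0 and 8 in the difference. Coding length kept 3, 3, 4 and 1 of the 9 level ranks in SCC15 with DMSO, SCC15 with squamocin, SCC25 with DMSO and SCC25 with squamocin. Same-numbered libraries did not deviate together (correlations −0.0511 to 0.0078), and with a replicate block the members that rose in SCC15 numbered 5, as without it. The cause of these shifts was not tested.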

Other observations

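Some pathway genes outside the naming rule were picked after their values were seen. LDHA, the muscle-type lactate dehydrogenase subunit, fell in SCC25 from 20856 ± 496 to 12900 ± 1061 normalized counts (SD, n = 3; log2 −0.70, SE 0.054, limma adjusted p = 1.03e-07), while LDHB rose there. In SCC15 LDHA had a log2 value of 0.19 that did not pass (limma adjusted p = 0.314) and turned to −0.31, which passed, with equal totals, and its response differed between the lines (log2 −0.88, limma adjusted p = 0.000667). IDH1, the cytosolic NADP-dependent isocitrate dehydrogenase, rose in SCC25 from 897 ± 17.0 to 1456 ± 48.3 (log2 0.70, limma adjusted p = 5.98e-08), with a log2 value of −0.14 in SCC15 (limma adjusted p = 0.335) that was −0.64 and passed with equal totals. The mitochondrial NADP-dependent enzyme IDH2 rose in SCC15 (log2 0.81) and fell in SCC25 (−0.54).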
